A study of Mus musculus with 57 samples.

Results

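Among the probes of an Illumina Mouse WG-6 BeadArray, 100 were chosen because they were lower in tumours of old than of adolescent mice in each of 3 separate sets of arrays. They were taken from 20591 probes that passed a detection filter, out of 45281 on the array. The tumours were of Lewis lung carcinoma, a transplantable mouse lung cancer line, grown in male mice, with 1 tumour on each of the 57 arrays. Old mice gave 10 tumours after 3 fractions of 0.5 Gy protons, a schedule labelled x3, 10 unirradiated tumours of a schedule labelled acute and 9 unirradiated tumours of the x3 schedule. Adolescent mice, whose age label is young, gave 10, 9 and 9 tumours of the same kinds. For 9 of the 10 old acute tumours, one label field names no dose and another names 0 Gy. The ages in weeks and the strain are not given in the sources used here.

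For the choice, intensities were quantile-normalized over all arrays and put on the log2 scale, and the median of the adolescent set was subtracted from the median of the old set for protons x3, unirradiated acute and unirradiated x3 tumours. The 100 probes were selected on the lowest maximum of these 3 differences. All age differences of these probes are therefore descriptions of what the choice used, with no test. The probe at rank 100, of the nucleolar gene Lyar, had a maximum of -0.3851, and that at rank 99, of Col3a1, had -0.3862. The next probes outside, ILMN_2772691 without a gene name and one of the actin crosslinker gene Actn4, had -0.3838 and -0.3835, so the edge separates probes of nearly equal values.

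Detected probes made up 35.6% ± 1.96 (SD, n = 10) of the array in old and 41.2% ± 0.61 (SD, n = 10) in adolescent tumours after protons. They made up 39.1% ± 1.45 (SD, n = 10) in old and 40.2% ± 1.80 (SD, n = 9) in adolescent unirradiated acute tumours, and 35.9% ± 3.02 and 40.6% ± 1.26 (SD, n = 9 each) in old and adolescent unirradiated x3 tumours. The part of this lower detection in the age differences was not tested. Old unirradiated x3 replicates 6 and 7 and adolescent unirradiated x3 replicate 5 stood apart from the other arrays, and without them 94 of the 100 probes were chosen again. Of 12 genes listed for the carcinoma and for epithelial cells, 6 had a probe that passed the filter. The keratins Krt8 and Krt18 stood at mean levels of 10.9 and 10.1 log2 units and were detected on all arrays. Probes of the others, Muc1, Krt7, Cldn7 and Cdh1, were dim, at mean levels of 5.09 to 5.91, and were detected on 10 to 55 arrays. No probe named for Epcam, Sftpc or Nkx2-1 passed the filter.

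A transplanted tumour holds the injected cancer cells and the tissue that the host contributes. Fibroblasts of that tissue lay down collagens, vessels bring red cells with their globin transcripts, and myeloid and cytotoxic cells enter from the blood. Chaperones of the heat shock families, splicing factors and translation factors are used by nearly every dividing cell. In bulk tumours, fewer cells of a type and less RNA per cell cannot be told apart.

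Of the 100 probes, 84 carried a gene name, for 77 genes, and 16 carried none. Detection reached all 57 arrays for 85 of them, against 51.6% of the probes that passed the filter. Their levels were also higher, with a median of 9.58 log2 units against 6.85 for all kept probes and a range of 5.75 to 13.1. These and the following levels were background-corrected with neqc, which uses the detection p-values to estimate background. The set was thus drawn mostly from bright probes. Of 34 gene lists, 7 held a member.

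Promoters are shown for genes that stand for the groups described, so that the letters before the starts of genes chosen for a shared direction can be set side by side. RefSeq promoters on GRCm38.p6, from 250 bases before to 50 after the start, were found for 63 of the 77 genes, and the first listed start was used. Capitals mark 3 motifs on either strand, TATAAA as well as the CCAAT box and the GC box GGGCGG, and matches that overlap run together. The first pair are the neighbouring collagen VI genes at chr10:76623355-76623654 and chr10:76725995-76726294, then follow the splicing gene Snrnp70 at chr7:45395693-45395992 and the globin gene Hbb-bs at chr7:103827879-103828178, all on the minus strand.
Col6a2: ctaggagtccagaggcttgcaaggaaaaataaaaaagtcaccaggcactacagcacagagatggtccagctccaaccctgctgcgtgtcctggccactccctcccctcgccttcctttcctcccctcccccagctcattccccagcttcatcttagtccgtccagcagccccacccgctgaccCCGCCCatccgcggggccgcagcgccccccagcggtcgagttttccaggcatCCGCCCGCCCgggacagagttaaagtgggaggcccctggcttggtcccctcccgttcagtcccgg
Col6a1: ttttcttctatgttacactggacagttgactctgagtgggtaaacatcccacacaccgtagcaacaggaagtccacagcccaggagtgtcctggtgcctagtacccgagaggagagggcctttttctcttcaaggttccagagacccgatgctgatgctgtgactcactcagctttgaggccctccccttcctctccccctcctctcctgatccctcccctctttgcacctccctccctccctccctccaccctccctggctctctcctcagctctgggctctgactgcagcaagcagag
Snrnp70: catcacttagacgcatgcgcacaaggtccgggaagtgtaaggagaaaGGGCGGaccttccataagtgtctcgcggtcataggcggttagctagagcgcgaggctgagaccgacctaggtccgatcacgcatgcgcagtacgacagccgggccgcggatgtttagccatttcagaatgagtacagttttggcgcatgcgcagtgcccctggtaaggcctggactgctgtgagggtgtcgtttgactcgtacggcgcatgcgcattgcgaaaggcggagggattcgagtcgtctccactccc
Hbb-bs: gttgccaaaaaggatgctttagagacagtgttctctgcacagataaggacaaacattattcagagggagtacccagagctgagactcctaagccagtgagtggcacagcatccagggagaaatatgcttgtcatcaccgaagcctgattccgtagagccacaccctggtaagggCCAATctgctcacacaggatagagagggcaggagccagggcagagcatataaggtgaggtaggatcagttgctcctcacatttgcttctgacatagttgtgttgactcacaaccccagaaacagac

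The collagen pair did not share these letters, since Col6a2 held 3 matches of GGGCGG and Col6a1 none of the 3 motifs. Snrnp70 held 1 match of GGGCGG and Hbb-bs 1 of CCAAT. Over the 63 promoters, GGGCGG stood in 66.7%, against 35.9% of the promoters of 27025 genes but 67.9% of 5586 genes with a probe detected on all arrays. CCAAT stood in 36.5%, against 37.9% of all and 39.0% of the genes detected throughout. TATAAA stood in 12.7%, against 14.2% and 7.16%. The heat shock element core GAANNTTC, where N is any base, stood in 6.35%, against 7.95% and 5.19%. The share of GGGCGG was near that of genes detected throughout, and that of TATAAA nearer to that of all genes. These shares describe the windows only.

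The age differences of the 100 probes had a median of -0.775 log2 units after protons, -0.617 in unirradiated acute and -0.814 in unirradiated x3 tumours, against -0.0321, 0.0122 and -0.015 for all kept probes. On the scale of the choice the medians were -0.591, -0.521 and -0.648. The age difference was smallest in unirradiated acute tumours for 57 probes, in unirradiated x3 tumours for 25 and after protons for 18, so the acute set most often decided the choice. The deepest fall on that scale was -2.74, of the unnamed probe ILMN_2551741 in unirradiated x3 tumours, and the acute differences lay between -0.929 and -0.388.

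The age differences were also described array by array. Each probe's level was set against the mean of its 6 set means, and the median of these deviations over the 100 probes was taken per array. After protons it ran from -0.678 through a median of -0.304 to -0.0403 log2 units on the old arrays, and from 0.286 through 0.388 to 0.58 on the adolescent arrays. In unirradiated acute tumours it ran from -0.346 through -0.122 to 0.0587 on the old arrays, and from 0.379 through 0.522 to 0.588 on the adolescent ones. In unirradiated x3 tumours the old arrays lay at -0.863, -0.719 and -0.303 (lowest, median and highest), and the adolescent arrays at 0.0724, 0.248 and 0.36. No old array reached an adolescent array of its own set, but the choice used the same differences, so nothing is read from this separation. Of the old sets the acute one had the highest median, though single arrays of the old sets overlapped.

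For single probes the ages overlapped more often. Every old array lay below every adolescent array for 24 probes after protons, 28 in unirradiated acute and 28 in unirradiated x3 tumours, where the share of all kept probes was 2.68%, 1.65% and 3.04%. Because the choice used the same differences, nothing is read from these counts. For 45 probes the ages overlapped in all 3 sets, while 93.8% of all kept probes had no set in which every old array lay below every adolescent one. The ages were separated in all 3 sets by 2 of the 100 probes, against 0.0874% of all kept probes, and both belong to splicing factor genes, which were picked out here after their values were seen.

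Snrnp70 encodes the U1 snRNP protein that helps recognise the 5′ splice site. After protons its probe ran from 6.29 through a median of 6.94 to 7.29 log2 units in old tumours, and from 7.77 through 8.29 to 8.72 in adolescent tumours. In unirradiated acute tumours it ran from 6.96 through 7.26 to 7.61 in old and from 7.75 through 8.0 to 8.25 in adolescent hosts. In unirradiated x3 tumours it ran from 6.23 through 6.98 to 7.10 in old and from 7.89 through 8.14 to 8.39 in adolescent hosts. The ages stood apart in each set by the choice of this gene. Between the old sets, acute tumours were higher than x3 tumours by 0.431 ± 0.114 (SE, limma adjusted p = 0.00147).

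Sf3b4 encodes a subunit of the SF3b complex of the U2 snRNP. Its medians were 10.7 in old and 11.1 in adolescent tumours after protons, 11.1 and 11.7 in unirradiated acute, and 10.5 and 11.1 in unirradiated x3 tumours. The highest old arrays, at 11, 11.2 and 10.7, came close to the lowest adolescent arrays, at 11, 11.4 and 10.9. Its old acute median of 11.1 equalled the adolescent medians of the x3 schedules. The probe of Zranb2, a zinc finger protein of the spliceosome, overlapped between the ages in each set: its old medians were 9.81, 10.3 and 9.71 after protons, in acute and in unirradiated x3 tumours, against adolescent medians of 10.5, 10.9 and 10.6. A probe of Srsf2, a serine and arginine rich splicing factor, had differences of -0.49, -0.75 and -0.64 in the same order of sets. Of its other kept probes, ILMN_2636335 had -0.199, -0.304 and -0.44, while ILMN_1235653 had -0.628, 0.752 and -1.71.

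Eef1b2 encodes the beta subunit of the exchange factor that recharges the elongation factor of translation with GTP, and its probe ranked first. After protons it ran from 9.57 through 9.98 to 10.8 log2 units in old and from 10.4 through 10.8 to 11 in adolescent tumours. In acute tumours it ran from 9.79 through 10.2 to 10.6 in old and from 10.7 through 11 to 11.5 in adolescent hosts, and in unirradiated x3 tumours from 8.39 through 9.42 to 10.1 and from 10.1 through 10.4 to 10.8. It separated the ages in both unirradiated sets and overlapped after protons. Another probe of the gene, ILMN_2708644, had differences of -0.266, -0.575 and -0.692 on the scale of the choice, while ILMN_1229042 had 0.438 after protons, -0.217 and -0.117. The gene has near-identical copies elsewhere in the genome, so its signal is uncertain.

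Chaperones follow. Hspa8 encodes the constitutive cytosolic Hsc70. After protons its probe, ILMN_1249586, ran from 10.4 through 10.8 to 11.7 in old and from 11.5 through 11.6 to 12.1 in adolescent tumours. In acute tumours it ran from 10.9 through 11.4 to 11.7 in old and from 11.3 through 12 to 12.2 in adolescent hosts. In unirradiated x3 tumours old levels of 9.84, 10.3 and 10.8 (lowest, median and highest) stood against adolescent levels of 11.4, 11.7 and 12.2, without overlap. Stip1, the cochaperone that joins Hsp70 to Hsp90, had old medians of 10.8, 10.8 and 10.2 after protons, in acute and in unirradiated x3 tumours, against adolescent medians of 11.4, 11.4 and 11.3. Hspd1, the mitochondrial Hsp60, had old medians of 11.2, 11.4 and 11 against adolescent medians of 11.8, 11.8 and 11.6.

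The probes of Hspa8 did not agree. ILMN_2918479 had an age difference of -0.603 after protons, 0.779 in acute and -2.06 in unirradiated x3 tumours on the scale of the choice and ranked 20311. ILMN_1246458, at a mean level of 13.8, stayed within -0.0298, -0.00269 and -0.0731. A second probe of Hspd1, ILMN_2639036, likewise turned positive in the acute set, at -0.861, 0.352 and -1.45. Hspa8 has processed copies elsewhere in the genome, so its signal is uncertain. Of the 29 kept probes listed for heat shock and unfolded proteins, 2 were members, and 1 of the 27 others, of the endoplasmic chaperone Hsp90b1, was lower in old tumours at a limma adjusted p under 0.05 in all 3 sets, where 3.03% of all kept probes were. None of the 27 was higher in all 3, where 3.22% of all kept probes were.

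Collagens made up the largest group taken from one list. They form the fibres, basement membranes and microfibrils that host fibroblasts and tumour vessels lay down. Members were probes of the fibrillar Col1a1 and Col3a1, the basement membrane collagen Col4a1, the beaded filament collagens Col6a1 and Col6a2 and the short-chain Col8a1. They were 6 of 48 kept probes on the matrix list, or 12.5%, against 0.486% of all kept probes.

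Col6a2 ranked at 4. After protons it ran from 7.94 through 8.29 to 9.74 in old and from 8.04 through 9.30 to 10.1 in adolescent tumours. In acute tumours it ran from 8.06 through 8.90 to 9.82 in old and from 9.30 through 9.65 to 10.8 in adolescent hosts, and in unirradiated x3 tumours from 7.08 through 7.62 to 8.40 and from 8.37 through 8.96 to 9.44. The ages overlapped in each set, in unirradiated x3 tumours by a narrow margin. The other kept probe of Col6a2, ILMN_1258759, did not share this direction throughout. It had -0.283 after protons, 0.103 in acute and 0.61 in unirradiated x3 tumours (limma adjusted p = 0.231, 0.726 and 0.0217). Col8a1 ran from 7.85 through 8.70 to 9.21 in old and from 9.38 through 9.76 to 10.6 in adolescent tumours after protons, without overlap. In acute tumours Col8a1 had medians of 9.11 in old and 9.79 in adolescent hosts, and in unirradiated x3 tumours 8.63 and 9.65.

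Col6a1 had old medians of 11.2, 11.7 and 10.4 after protons, in acute and in unirradiated x3 tumours, against adolescent medians of 11.8, 12.2 and 11.5. Col3a1 had 9.10, 9.35 and 8.82 against 9.55, 10.2 and 9.44. Col4a1 had 11.3, 11.5 and 11.1 against 11.8, 12.3 and 11.7. Col1a1 varied widely, with old arrays at 6.36 to 11.7 and adolescent arrays at 7.26 to 10.0 in the acute set, so that its difference of medians lay within the spread of the tumours.

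Beyond the members, which the choice had taken out as the lowest, the matrix list did not fall in all 3 sets. Of the 42 other matrix probes, 9 were negative in all 3 sets on the scale of the choice, where 22.8% of all kept probes were. None was lower or higher in all 3 by the limma fit at adjusted p under 0.05, where 3.03% and 3.22% of all kept probes were. Their median age differences were -0.256 after protons, 0.128 in acute and -0.382 in unirradiated x3 tumours. For all kept probes they were -0.0321, 0.0122 and -0.015. By these medians the other matrix probes were lower in old hosts after protons and in unirradiated x3 tumours, and not in acute tumours. Fn1, the fibronectin gene, had a probe, ILMN_2646618, at -0.829, 1.20 and -2.03 (limma adjusted p = 0.023, 0.00286 and 1.9e-07). A second probe of Col3a1, ILMN_2683958, ran the same way, with -0.872, 0.765 and -2.60 (limma adjusted p = 0.00947, 0.187 and 1.42e-09), and so disagreed with the member probe of its gene in the acute set. A second probe of Col6a1, ILMN_1259388, at a mean of 11.4, was higher in old tumours after protons, at 0.343 (limma adjusted p = 0.00744). Another, ILMN_2589422, detected on 36 arrays, shared the member's direction, at -1.54, -0.369 and -1.42 after protons, in acute and in unirradiated x3 tumours. The mean level of 23 fibroblast marker probes, 1 of them the Col1a1 member, had a median of 8.32 in old and 8.48 in adolescent tumours after protons. In acute tumours the medians were 8.46 and 8.34, and in unirradiated x3 tumours 8.21 and 8.42. The median age differences of the 22 other probes were 0.00383 after protons, 0.24 in acute and -0.00576 in unirradiated x3 tumours. The part of fibroblasts in the collagen differences was not tested.

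Red cell transcripts had most member probes per gene. Hbb-bs, an adult beta globin gene, had 4 member probes, and Hbb-bt, its near-identical neighbour, had 1, so the probes cannot assign the signal to one of the pair. The first Hbb-bs probe ran from 9.97 through 11.9 to 13.8 in old and from 11.2 through 13.4 to 14.6 in adolescent tumours after protons. In acute tumours it ran from 11 through 12.3 to 14.4 in old and from 12 through 13.1 to 14.4 in adolescent hosts, and in unirradiated x3 tumours from 10.3 through 12.7 to 14.7 and from 11.9 through 13.3 to 14.5. Ages overlapped over most of this range in each set. The 4 probes had differences of -1.26 to -1.50 after protons, -0.47 to -0.85 in acute and -0.65 to -0.88 in unirradiated x3 tumours. Probes of these genes outside the 100 did not all share the last of these, since ILMN_1244316 and ILMN_2544056 of Hbb-bs had 0.238 and 0.0739 and ILMN_1235372 of Hbb-bt had -0.00246 there. All 3 were negative in the other sets, at -1.03, -1.83 and -1.76 after protons and -0.466, -0.277 and -0.302 in acute tumours.

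The erythrocyte list, which held no Hbb-bs probe, followed the age difference in 2 of the 3 sets by its median. Over its 8 kept probes of 5 genes, 1 of them the Hbb-bt member, the mean per array had a median of 8.94 in old and 10.0 in adolescent tumours after protons, 9.17 and 9.69 in acute, and 9.90 and 9.72 in unirradiated x3 tumours. The range over single tumours was 7.56 to 10.8 in old and 8.25 to 11.3 in adolescent tumours after protons. Hba-a1, an alpha globin gene that was not a member, had differences of -1.01, -0.868 and -0.0877, with limma adjusted p of 0.225, 0.272 and 0.708. Blood content of the tumour pieces was not measured, and its part in these differences was not tested.

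Gzmd and Retnlg are genes of immune cells. Gzmd encodes granzyme D, a serine protease of mouse cytotoxic cells, and ranked second. It ran from 5.19 through 6.05 to 7.45 in old and from 5.33 through 8.27 to 9.90 in adolescent tumours after protons. In acute tumours it ran from 5.19 through 7.19 to 9.68 and from 6.38 through 8.57 to 10.9, and in unirradiated x3 tumours from 4.88 through 5.77 to 7.26 and from 5.31 through 7.23 to 9.35, old before adolescent in each. The ages overlapped in all 3 sets. Of 12 marker genes of natural killer and cytotoxic cells, 4 had kept probes, 5 in all. Their mean had medians of 6.40 in old and 6.23 in adolescent tumours after protons, 6.21 and 6.21 in acute, and 6.48 and 6.11 in unirradiated x3 tumours. Dim probes of Klrd1, Ccl5 and Nkg7 had positive differences in all 3 sets, and a dim one of Prf1 negative ones. The bright Prf1 probe, ILMN_2960700, had -0.165, -0.559 and 0.42 (limma adjusted p = 0.973, 0.00212 and 0.136) in the same order of sets. A second Gzmd probe, ILMN_2678281, had differences of 0.00709, 0.134 and 0.19 on the scale of the choice.

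Retnlg encodes resistin-like gamma, a secreted protein of neutrophils. Its old medians were 5.74, 7.60 and 6.35 after protons, in acute and in unirradiated x3 tumours, against adolescent medians of 9.02, 8.38 and 7.32. One old unirradiated x3 tumour reached 12.1, above each adolescent tumour of that set. With means in place of medians the unirradiated x3 difference of Retnlg was 0.277, so this member rests on the use of medians. The mean of 14 neutrophil marker probes, 1 of them the Retnlg member, had medians of 6.09 in old and 7.06 in adolescent tumours after protons. In acute tumours the medians were 6.62 and 6.86, and in unirradiated x3 tumours 6.42 and 6.53. The median age differences of the 13 other probes were -0.64 after protons, -0.104 in acute and -0.091 in unirradiated x3 tumours. The part of neutrophils in the Retnlg difference was not tested.

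The following genes lie outside the lists described so far. Capzb encodes the beta subunit of the protein that caps the barbed ends of actin filaments. Its levels were 9.40 ± 0.46 (SD, n = 10) in old and 10.1 ± 0.15 (SD, n = 10) in adolescent tumours after protons, 9.49 ± 0.21 (SD, n = 10) and 10.1 ± 0.18 (SD, n = 9) in acute, and 9.41 ± 0.17 and 10.1 ± 0.16 (SD, n = 9 each) in unirradiated x3 tumours. Against unirradiated x3 tumours of the same age its differences were at most 0.0785, with limma adjusted p of 0.605 or above. Other kept probes of Capzb did not all share its age differences. ILMN_1220165 had -0.599, -0.135 and -1.02 after protons, in acute and in unirradiated x3 tumours. In the same order ILMN_3031009 had -0.466, -0.023 and 0.126, and ILMN_1230100 had -0.344, 0.202 and -0.286. Csrp1, a LIM protein of the actin cytoskeleton, had old medians of 9.13, 9.46 and 9.21 against adolescent medians of 10.6, 10.2 and 9.91, with 1 old unirradiated x3 tumour at 12. Cavin1, a coat protein of caveolae, had old medians of 8.76, 9.03 and 8.64 against 10.3, 9.66 and 9.75, and separated the ages after protons.

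Ykt6, a SNARE protein of vesicle fusion, entered with 2 probes. The first had old medians of 8.88, 9.46 and 9.01 after protons, in acute and in unirradiated x3 tumours, against adolescent medians of 10.2, 10.1 and 9.81. Both probes separated the ages after protons and in unirradiated x3 tumours, and overlapped in the acute set. Traf4, an adaptor of the TRAF family, Ptms, the nuclear protein parathymosin, and Rbm38, an RNA-binding protein induced by p53, also had 2 member probes each. Differences of the second probes after protons, in acute and in unirradiated x3 tumours were -0.76, -0.86 and -0.91 for Traf4. They were -0.56, -0.55 and -1.61 for Ptms and -0.82, -0.82 and -0.66 for Rbm38. Other kept probes of Traf4 were negative in acute tumours only. ILMN_1219701 had 0.293, -0.25 and 0.947 and ILMN_2801652 had 0.0227, -0.29 and 0.409, in the same order of sets. Another kept probe of Rbm38, ILMN_2708211, was negative in each set, at -1.51, -0.578 and -1.49.

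Angptl4, a secreted inhibitor of lipoprotein lipase that hypoxia and fasting induce, had levels of 7.47, 8.39 and 9.24 (lowest, median and highest) in old and 8.36, 9.72 and 10.2 in adolescent tumours after protons. Its old medians were 8.23 in acute and 8.45 in unirradiated x3 tumours, against adolescent medians of 9.22 and 9.19, and the ages overlapped in all 3 sets. Phlda3, a p53 target that restrains Akt, had old medians of 8.80, 8.81 and 8.22 against adolescent medians of 9.49, 9.32 and 9.28. Ltbp3, which binds latent TGF-beta in the matrix, had 10.4, 10.9 and 10.1 against 11, 11.3 and 10.9. The lists of the p53 and DNA damage response and of the TGF-beta pathway held 1 member probe each. Of the 38 other p53 probes 6 were negative in all 3 sets, and of the 22 other TGF-beta probes 4, where 22.8% of all kept probes were. Median age differences of the other p53 probes were -0.0334 after protons, 0.0926 in acute and 0.0417 in unirradiated x3 tumours.

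Other probes of the same genes give a view of how far single probes speak for a gene. Of the 77 genes, 47 had further probes that passed the filter, 95 in all. Of these, 50 were negative in all 3 sets, or more than the 22.8% of all kept probes, and 23 ranked within the first 1000 on the scale of the choice. The rest included probes that ran the other way in at least 1 set. One of Lmna, the nuclear lamina gene, had 0.389, 0.113 and 0.611 (ILMN_1255510), whereas 2 others of that gene, ILMN_1254405 and ILMN_2662387, were negative in all 3. One of Nfic, a transcription factor gene, had 0.44, -0.351 and 0.836 (ILMN_2710678). These genes were picked after their values were seen.

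Within one age, tumours after protons and unirradiated acute tumours were each compared with unirradiated x3 tumours. These comparisons were fitted with limma over all kept probes, and p-values were adjusted over all of them by the Benjamini-Hochberg method. The arrays compared had also entered the choice of the probes, and the old comparisons share their unirradiated x3 arrays, as do the adolescent ones. Counts are therefore read as descriptions against the share of all kept probes.

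After protons in old hosts, 42 of the 100 probes were higher than in unirradiated x3 tumours and 3 were lower, where 17.6% of all kept probes were higher and 14% lower. The median difference was 0.276 log2 units, against 0.0131 for all kept probes. Of the 85 members detected on all arrays 39 were higher, against 22.2% of the 10632 such probes. Without the 3 arrays that stood apart, 34 were higher and 2 lower. Markers of other cell types moved in the same comparison: of 20 endothelial probes 14 were lower and 0 higher (median -0.947), and of 8 carcinoma and epithelial probes 4 were lower and 1 higher (median -1.17). The mean of the endothelial probes ran from 6.77 to 7.43 after protons and from 7.07 to 10.9 in unirradiated x3 tumours, and that of the carcinoma and epithelial probes from 6.24 to 6.67 and from 6.42 to 9.97. Without the 3 arrays, 2 endothelial probes were lower (median -0.133) and 1 carcinoma or epithelial probe was lower and 1 higher (median -0.0202). Their part in the members' differences was not tested. Among the members that rose most, the unnamed ILMN_2551741 differed by 1.49 ± 0.25 (SE, limma adjusted p = 9.48e-06). COX2, the mitochondrially encoded subunit of cytochrome c oxidase, had medians of 9.87 after protons and 8.36 in unirradiated x3 tumours and rose by 1.36 ± 0.24 (SE, limma adjusted p = 1.81e-05). The other 2 of the 4 largest rises were unnamed probes, ILMN_1214137 at 1.38 and ILMN_2434853 at 1.19 (limma adjusted p = 0.000113 and 0.000475). Without the 3 arrays that stood apart ILMN_1214137 differed by 0.851.

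The 3 that fell were of Setd5, a chromatin regulator with a SET domain, Mfhas1, a leucine-rich repeat protein, and Chtf8, a subunit of the alternative clamp loader of replication. Setd5 ran from 4.47 through 6.40 to 7.36 after protons and from 6.74 through 8.13 to 8.57 in unirradiated x3 tumours of old hosts. Its difference was -1.53 ± 0.26 (SE, limma adjusted p = 1.07e-05), the largest fall of the 100, and was -0.785 without background correction and -0.729 with the authors' values. Chtf8 had -0.437 ± 0.121 (SE, limma adjusted p = 0.00445), a call that array weights ended (limma adjusted p = 0.0553). Mfhas1 had -0.511 ± 0.191 (SE, limma adjusted p = 0.0344), and its call was lost under 6 of the 9 other settings, where adjusted p ran up to 0.205. Without the 3 arrays that stood apart its difference was -0.339.

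Members of the fixed lists took part unequally. In old hosts after protons, Col6a1 rose by 0.826, Col3a1 by 0.789 and Col6a2 by 0.738 (limma adjusted p = 0.00054, 0.00966 and 0.00877). Col8a1 had 0.467, Col1a1 0.382 and Col4a1 0.0256 and did not pass (limma adjusted p = 0.216, 0.639 and 0.927). Over all 48 matrix probes, 15 were higher and 3 lower, where 17.6% of all kept probes were higher and 14% lower. Hspa8 rose by 0.49 and Hspd1 by 0.403 (limma adjusted p = 0.00689 and 0.00977), and 7 of 29 heat shock probes were higher and 3 lower, near the same shares of all kept probes. Splicing members differed among themselves, with Snrnp70 at 0.0334 and Sf3b4 at 0.399 (limma adjusted p = 0.853 and 0.00633). The 5 globin probes had differences of -0.594 to -0.911 with standard errors of 0.50 to 0.567, and none passed. Without the 3 arrays that stood apart, Col3a1 had 0.319, Hspd1 0.176 and Sf3b4 0.152 and no longer passed (limma adjusted p = 0.195, 0.167 and 0.168), while Col6a1, Col6a2 and Hspa8 passed at 0.823, 0.804 and 0.439 (limma adjusted p = 0.00164, 0.00962 and 0.0293). Of the matrix probes 11 were then higher and 1 lower, and of the heat shock probes 5 and 1.

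In adolescent hosts, none of the 100 probes passed after protons, where 0.00971% of all kept probes were higher and 0.0243% lower. At an unadjusted p under 0.05, limma gave 19 higher and 1 lower, where 5.06% of all kept probes were higher and 5.72% lower. The median difference was 0.167, against 0.0142 for all kept probes, and differences ran from -0.534 to 0.962. Of the 100, 57 had a positive difference after protons at both ages, against 33.3% of all kept probes. Setd5, the deepest fall in old hosts, had 0.236 ± 0.256 here (SE, limma adjusted p = 0.838). Whether protons acted differently at the ages was not tested on these probes, because that contrast is made of the differences the choice used.

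Between the unirradiated schedules in old hosts, 63 of the 100 probes were higher in acute than in x3 tumours and 1, Chtf8, was lower, where 26.4% of all kept probes were higher and 21.2% lower. Without the 3 arrays that stood apart, 61 were higher and 1 lower. The same marker lists moved here too, with 10 of 20 endothelial probes lower and 0 higher, and 6 of 8 carcinoma and epithelial probes lower and 1 higher. Without the 3 arrays, 3 endothelial probes were lower and 2 higher (median -0.019). Of the carcinoma and epithelial probes 2 were then lower and 1 higher (median 0.0492). The median difference of the 100 probes was 0.536, against 0.0167 for all kept probes. The background estimated for each array ran from 115 to 195 in old acute and from 111 to 140 in old unirradiated x3 tumours. Its part in the differences between the schedules was not tested. ILMN_2551741 differed by 2.08 ± 0.25 and COX2 by 1.47 ± 0.24 (SE, limma adjusted p = 1.34e-09 and 1.02e-06), and the unnamed ILMN_2727536 and ILMN_1214137 by 1.61 and 1.48 (limma adjusted p = 7.63e-10 and 1.19e-05). The difference of ILMN_1214137 was 0.957 without the 3 arrays. Chtf8 had -0.425, and -0.251 with the authors' values. Hspa8 was higher by 1.01 ± 0.14, Col6a1 by 1.25 ± 0.19 and Col6a2 by 1.23 ± 0.22 (SE, limma adjusted p = 7.21e-08, 1.96e-07 and 9.41e-06).

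In adolescent hosts, 25 of the 100 probes were higher in acute than in x3 tumours and 1 was lower, where 5.8% of all kept probes were higher and 5.51% lower. The median difference was 0.221, against -0.0134. Background estimates ran from 131 to 145 in adolescent acute and from 85.4 to 115 in adolescent unirradiated x3 tumours, and their part was not tested. The rises were led by Col6a2 at 0.853 ± 0.228, the unnamed ILMN_1234143 at 0.805 ± 0.225, the Golgi stacking gene Gorasp2 at 0.733 ± 0.114 and Col6a1 at 0.705 ± 0.190 (SE, limma adjusted p = 0.00946, 0.0131, 2.08e-05 and 0.0102). Gorasp2 had medians of 10.5 in acute and 9.74 in x3 tumours, without overlap. The probe that fell was of Map3k20, a kinase that responds to stalled ribosomes, at -0.677 ± 0.191 (SE, limma adjusted p = 0.0141; -0.443 without background correction), and in old hosts it was higher, at 0.583 ± 0.186 (SE, limma adjusted p = 0.00829). Acute tumours were higher than x3 tumours at both ages for 19 of the 100 probes, against 1.84% of all kept probes.

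The spread between tumours of a set also differed. The median SD of the 100 probes was 0.370 in old and 0.275 in adolescent tumours after protons, 0.256 and 0.241 in acute, and 0.503 and 0.294 in unirradiated x3 tumours. For all kept probes it was 0.348 and 0.244, 0.241 and 0.263, and 0.416 and 0.262 in the same order.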

How the data were processed

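RNA of 57 single tumours was hybridised to bead arrays. The deposited intensity values are mean bead brightness per probe without background subtraction or normalization, as their lowest value of 70.75 and array medians of 89.2 to 208 show; each has a detection p-value computed by the authors' software, per the file headers. The submitters' processing notes name GenomeStudio and give no version. A second table deposited by the authors, with intensity values whose array medians run from 132 to 162, correlated with the first at 0.996 or more on the log2 scale; its method of scaling stays unknown, and it served as an alternative.

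The members and gene lists were chosen with earlier results of these data known. Probes with a detection p-value under 0.05 on at least 10 arrays were kept (45.5%). Age differences used for the choice were on quantile-normalized log2 values of the deposited intensities. Levels and tests used neqc in limma 3.58.1 (R 4.3.3), with an offset of 16, which damps changes of dim probes. Background correction still left such changes larger than on the scale of the choice. Retnlg, detected on 49 arrays, had an age difference of -3.28 after protons, against -1.92 on that scale. The model (lmFit, eBayes) held a mean for each of the 6 sets over 57 arrays, and the threshold was an adjusted p of 0.05 (Benjamini-Hochberg over 20591 probes). The fit was tested on simulated data. Replicates are tumours; the labels do not say which shared a cage or processing day, and the number of arrays limits precision. No arrays were identical, the closest pair correlating at 0.991.

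The platform annotation gave 1 symbol to 34885 probes, several to 18 and none to 10378. Probes were not merged per gene. Genes named with values in every set are the 12 first-ranked members that were the first probe of a named gene. Also named are ranks 99 to 102, members of the 34 lists, of which 7 held one, genes with 2 or more member probes, and up to 4 called members per direction with the largest change in each comparison. Genes given for their role or for disagreeing probes beyond these were picked after their values were seen. No chip or slide is named in the files, so none was fitted as a block.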

Additional observations from a re-analysis of the deposited data

Results flagged for a closer look

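Among 78 sets of 9 or 10 values of the 12 first-ranked genes and of the array medians, 4 held a value far from the others of its set, and chance marks about 1 in 20. Eef1b2 stood at 8.39 log2 units in old unirradiated x3 replicate 7, where the set median was 9.42, and this array also stood apart from the rest over all probes. Col6a2 stood at 9.74 in old protons x3 replicate 1, against a median of 8.29. Angptl4 stood at 9.86 in old unirradiated acute replicate 18, against a median of 8.23. Col8a1 stood at 7.79 in adolescent unirradiated x3 replicate 2, against a median of 9.65.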

How the results depend on the processing

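Which probes are chosen depended on the scale and the sets used. With neqc values in place of quantile-normalized intensities 28 of the 100 were chosen again, though all 100 ranked within the first 488, and with the x3 differences alone 15 were, though all 100 were within the first 920. With the authors' values 72, with means 76 and without 3 outlying arrays 94 were chosen again, and with either other filter on dim probes all 100. For protons in adolescent hosts the count of 0 became 1 with the authors' values, 9 with array weights and 3 with adolescent arrays alone. For acute against x3 tumours in adolescent hosts the count of 26 became 44 with array weights and 43 with adolescent arrays alone. In old hosts counts ran from 36 to 47 after protons, against 45, and from 61 to 69 for acute against x3 tumours, against 64. The probes called changed more than these counts. Of the 45 called after protons, 34 were called again with array weights and 32 without the 3 outlying arrays. Of the 64 called for acute against x3 tumours, 55 were called again with the detected share as covariate. Of 143 values of single named probes under other settings, 136 kept their call and 7 lost it (6 of Mfhas1 and 1 of Chtf8), and 0 changed sign. The cause was not tested. With the replicate block the counts after protons were 43 in old and 0 in adolescent hosts. Correlations of same-numbered proton and unirradiated x3 tumours ran from -0.159 through a median of -0.00825 to 0.307 in old hosts. In adolescent hosts they ran from -0.223 through -0.0752 to 0.353. At each age 1 of 9 correlated best with its own number, so no pairing by number was seen. Acute and x3 tumours share no numbers. Dim probes have little signal over background, which limits their fold changes. The values of gene lists without the 3 outlying arrays were added after seeing the data.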

Other observations

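Several other lists held no member. Of 29 probes of the type I interferon response, 0 were negative in all 3 sets, where 22.8% of all kept probes were, and their median age differences were 0.26 after protons, 0.507 in unirradiated acute and 0.578 in unirradiated x3 tumours. Of 14 probes of MHC class II antigen presentation, likewise 0 were negative in all 3, with medians of 0.459, 0.619 and 0.537. Of 48 cell cycle probes, 23 were negative in all 3 sets, against the same 22.8%, with medians of -0.153, -0.0651 and -0.264, but 1 was lower and 1 higher in all 3 by limma at adjusted p under 0.05, where 3.03% and 3.22% of all kept probes were.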
